A study of Bos taurus with 8 samples.

Results

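The subcortical maternal complex is a protein assembly laid down in the growing oocyte beneath the plasma membrane and carried into the cleaving embryo. Its scaffold joins NLRP5 (also called MATER), TLE6 and OOEP (FLOPED). PADI6, a member of the peptidylarginine deiminase family, is needed for the cytoplasmic lattices of the egg, and ZBED3 is a zinc finger protein reported with the complex. NLRP2, NLRP8, NLRP9, NLRP13 and NLRP14 belong with NLRP5 to the branch of the NOD-like receptor family that is expressed in oocytes rather than in immune cells. Mothers that lack a core component, in mice and in women, produce embryos that stop dividing at the first cleavages, and the transcripts are made in the oocyte and decline after the embryonic genome becomes active. The genes were chosen by name, with earlier results of these data known. All 10 listed genes were among the 16606 genes of the table, 6 of them NLRP genes and 4 other complex genes.

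Transcript levels were measured in 8 libraries of bovine embryos, 2 in each of 4 groups: controls and embryos edited in RPL12, each collected as 4-cell and as 8-cell embryos. Per the labels' protocols, the oocytes came from ovaries of slaughtered cattle and went through maturation and fertilisation in vitro, with Holstein semen. Edited embryos received PEmax and its guide RNA by cytoplasmic injection as zygotes. The sample titles call the same embryos base edited, and which kind of editing is meant cannot be settled from the labels. PEmax is a prime editor, which joins a nicking Cas9 to a reverse transcriptase and copies a change from the guide. The labelled change is A148G in RPL12, a gene for a large-subunit ribosomal protein, and what its position is counted from is not given. Whether control embryos were injected, what share of alleles was edited and whether cumulus cells had been removed are not given in the labels. Each library came from a pool of 5 embryos, so that differences between single embryos are averaged. Nothing in the labels says that the pools of a group came from separate fertilisations, and p-values measure the spread between these pools, which may be technical. The titles were followed where the 4-cell samples carry the source name of oocytes.

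The libraries held 33527531 to 35122409 reads assigned to genes. The level of a gene is given in CPM, its reads scaled to a nearly fixed library total, and a group by its mean ± SD (n = 2). The deposited values of a library summed to between 992528 and 1.007e+06 CPM. RPL12 itself was lower in edited embryos. It had 30.5 ± 4.33 CPM where controls had 167 ± 10.2 CPM (4-cell), and 12.98 ± 1.59 CPM where they had 96.9 ± 0.942 CPM (8-cell). limma called RPL12 lower in each comparison, with log2 fold changes of -2.41 (4-cell) and -2.81 (8-cell). The same call was made for 25.8% (4-cell) and 14.5% (8-cell) of all genes tested. Being lower was thus not particular to the edited gene. The 15 listed oocyte markers that were in the table had reads in every library, the lowest value being 25.0 CPM. Their sum at the 4-cell stage was 21231 and 27573 CPM in the controls and 51066 and 59228 CPM in the edited libraries. Much of it was BTG4, with means of 13470 CPM in controls and 33202 CPM in edited embryos. The markers as a set were split, with 8 log2 fold changes above 0 and 7 below. Of the 15, 7 were called higher and 1 lower, where 18.9% and 25.8% of all genes were. In 8-cell embryos the markers summed to 51894 and 39367 CPM (controls) and to 55092 and 58252 CPM (edited). Of these markers 3 were called higher and 0 lower, where 1.08% and 14.5% of all genes were. Of 25 markers of cumulus and granulosa cells, the somatic cells around the oocyte, 21 had reads in every library, whereas FOXL2 and LHCGR stayed under 1 CPM throughout. The mean level of the 23 tested markers of these cells was 5.11 and 5.22 on the log2(CPM + 1) scale in the 4-cell controls, 3.39 and 3.71 in the 4-cell edited, 4.14 and 4.94 in the 8-cell control and 3.61 and 3.28 in the 8-cell edited libraries. Their summed level was 4528 to 5389 CPM, 1808 to 1883 CPM, 2327 to 3629 CPM and 3543 to 4124 CPM in the same order. The mean was lower in edited than in control libraries at each stage without overlap, whereas the sum was lower at the 4-cell stage and not at the 8-cell stage, where ID3 alone reached 3495 CPM in an edited library. When this mean was a covariate in the limma fit, 0 of the 10 genes were called in either direction, in both editing comparisons and in the other 3 contrasts. That fit left hardly any gene called at the 4-cell stage, and at the 8-cell stage 0 of the 10 were called without the covariate. By itself the covariate separates edited from control libraries at each stage, so that editing and the marker level cannot be told apart. In such pools a smaller number of cells of a type and less RNA per cell cannot be told apart. The 8 listed markers of blood and immune cells summed to 12.8 to 24.6 CPM, with PTPRC, HBA and ITGAM under 1 CPM in all libraries.

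The 10 genes together accounted for 0.153% and 0.180% of reads in the 4-cell controls. Their share was 0.318% and 0.218% in the 4-cell edited, 0.278% and 0.252% in the 8-cell control and 0.328% and 0.327% in the 8-cell edited libraries. Both 4-cell control libraries thus lay below the other 6. Most of these reads were of NLRP14, NLRP9 and NLRP8, which made up between 74.9% and 82.5% of them per library. Levels were not compared between genes, because transcript lengths were not used here.

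**Figure D1:**
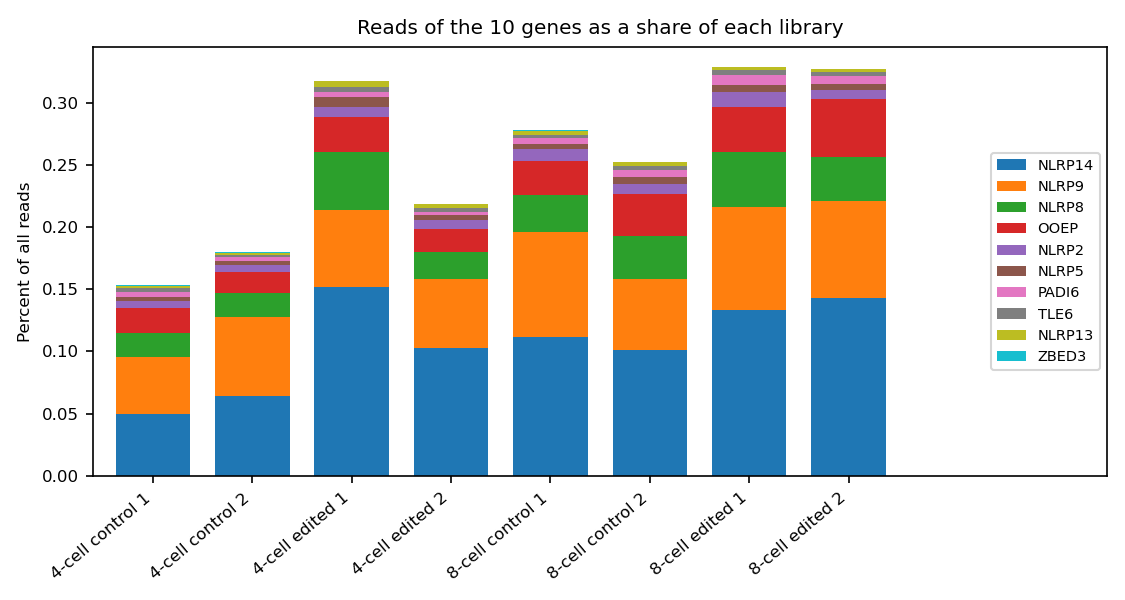
Reads of the 10 genes as a percent of all reads assigned to genes, 1 bar per library, with 1 colour per gene stacked from NLRP14 at the base. The 2 bars of the 4-cell controls, at 0.153% and 0.180%, are the lowest, and those of the 8-cell edited embryos, at 0.328% and 0.327%, the highest.

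The first question was whether editing of RPL12 went with a change of these transcripts at the 4-cell stage. Of the 10 genes, 3 were called higher in edited embryos by limma (adjusted p under 0.05 over the 12129 genes tested) and 0 lower. Over all genes tested 44.7% were called in this comparison, 18.9% higher and 25.8% lower, so that 3 of 10 called higher lies little above the background. In 4 of the 10, the called genes and NLRP2, both edited libraries lay above both controls, where 33.5% of all genes did. None lay below without overlap, where 37.5% of all genes did. The 3 were NLRP14, NLRP13 and NLRP8, all NLRP genes, and none of the 4 other complex genes was called. All 10 passed the filter of a mean of at least 1 CPM over the 8 libraries. Their median log2 fold change was 0.48, beside -0.016 over all genes tested and 0.50 over the 15 oocyte markers.

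NLRP14 binds the DNA methylation cofactor UHRF1 in mouse eggs and is required there for development beyond the first cleavages. It stood at 503 and 643 CPM in the 4-cell controls and at 1506 and 1021 CPM in the 4-cell edited libraries. It stood at 1120 and 1012 CPM in the 8-cell controls and at 1333 and 1437 CPM in the 8-cell edited libraries. The 4-cell controls were lower than each of the other 6 libraries. The 4-cell means were 1263 ± 342 CPM (edited) and 573 ± 99.3 CPM (control), and the log2 fold change, taken on log2(CPM + 1), was 1.12 (SE 0.229, adjusted p by limma 0.000961). This call was kept without any 1 of the 8 libraries, with values from 0.84 to 1.40.

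NLRP13 is an oocyte NLRP gene with no settled role. It stood at 18.9 and 16.8 CPM in the 4-cell controls, from 654 and 574 reads, and at 51.7 and 30.3 CPM in the 4-cell edited libraries. The 4-cell groups did not overlap, but the first edited library lay far above the second. The log2 fold change was 1.11 (SE 0.301, adjusted p by limma 0.00713). Without that first 4-cell edited library it was 0.73 (limma adjusted p-value 0.0923).

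NLRP8 is a further oocyte NLRP gene. It stood at 192 and 196 CPM in the 4-cell controls and at 461 and 222 CPM in the 4-cell edited libraries, so that the controls were close together and the edited libraries apart. The log2 fold change was 0.72 (SE 0.280), with a limma adjusted p-value of 0.0458, close to the threshold. Without the first 4-cell edited library it was 0.20 (limma adjusted p-value 0.575), and without the second it was 1.25 (0.00364). The adjusted p-value also rose above 0.05 without either 4-cell control library (0.105 and 0.0755), without either 8-cell edited library (0.0549 and 0.0548) and without a filter on low values (0.113).

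The other 3 NLRP genes were not called at the 4-cell stage. NLRP5, the scaffold protein whose loss in the mother arrests mouse embryos at the 2-cell stage, stood at 38.0 and 32.5 CPM in controls and at 76.4 and 35.4 CPM in edited embryos. Its log2 fold change of 0.55 had a 95% interval from -0.12 to 1.23, and the edited libraries lay on both sides of the higher control. NLRP2, which in mice is a maternal-effect gene bound to the complex, stood at 52.4 and 56.9 CPM in controls and at 78.8 and 73.2 CPM in edited embryos. The groups of NLRP2 did not overlap, and the interval of its log2 fold change of 0.47 ran from -0.098 to 1.03. NLRP9 stood at 460 and 632 CPM in controls and at 617 and 549 CPM in edited embryos, with a log2 fold change of 0.11 and an interval from -0.39 to 0.61.

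Of the 4 other complex genes, none was called at the 4-cell stage. OOEP, a KH-domain protein of the scaffold, stood at 206 and 166 CPM in controls and at 281 and 183 CPM in edited embryos. Its log2 fold change was 0.29, with an interval from -0.23 to 0.82. TLE6, a relative of the Groucho corepressors and a scaffold subunit, stood at 30.2 and 18.9 CPM in controls and at 40.9 and 28.7 CPM in edited embryos. The groups overlapped, and the log2 fold change of 0.50 had an interval from -0.16 to 1.16. PADI6 stood at 40.1 and 30.8 CPM in controls and at 39.9 and 28.6 CPM in edited embryos, a log2 fold change of -0.054 (interval -0.63 to 0.52) whose sign turned under TMM scaling, to 0.059.

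ZBED3 was read at the edge of detection. It had 72 and 41 reads in the 4-cell controls, 15 and 49 in the 4-cell edited, 31 and 48 in the 8-cell control and 2 and 42 in the 8-cell edited libraries. The 8-cell edited libraries differed 21.0-fold from each other, at 0.0598 and 1.26 CPM. Edited against control, ZBED3 had a log2 fold change of -0.48 in 4-cell embryos (interval -1.44 to 0.48) and of -0.47 in 8-cell embryos (interval -1.42 to 0.49), and neither was called.

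**Figure D2:**
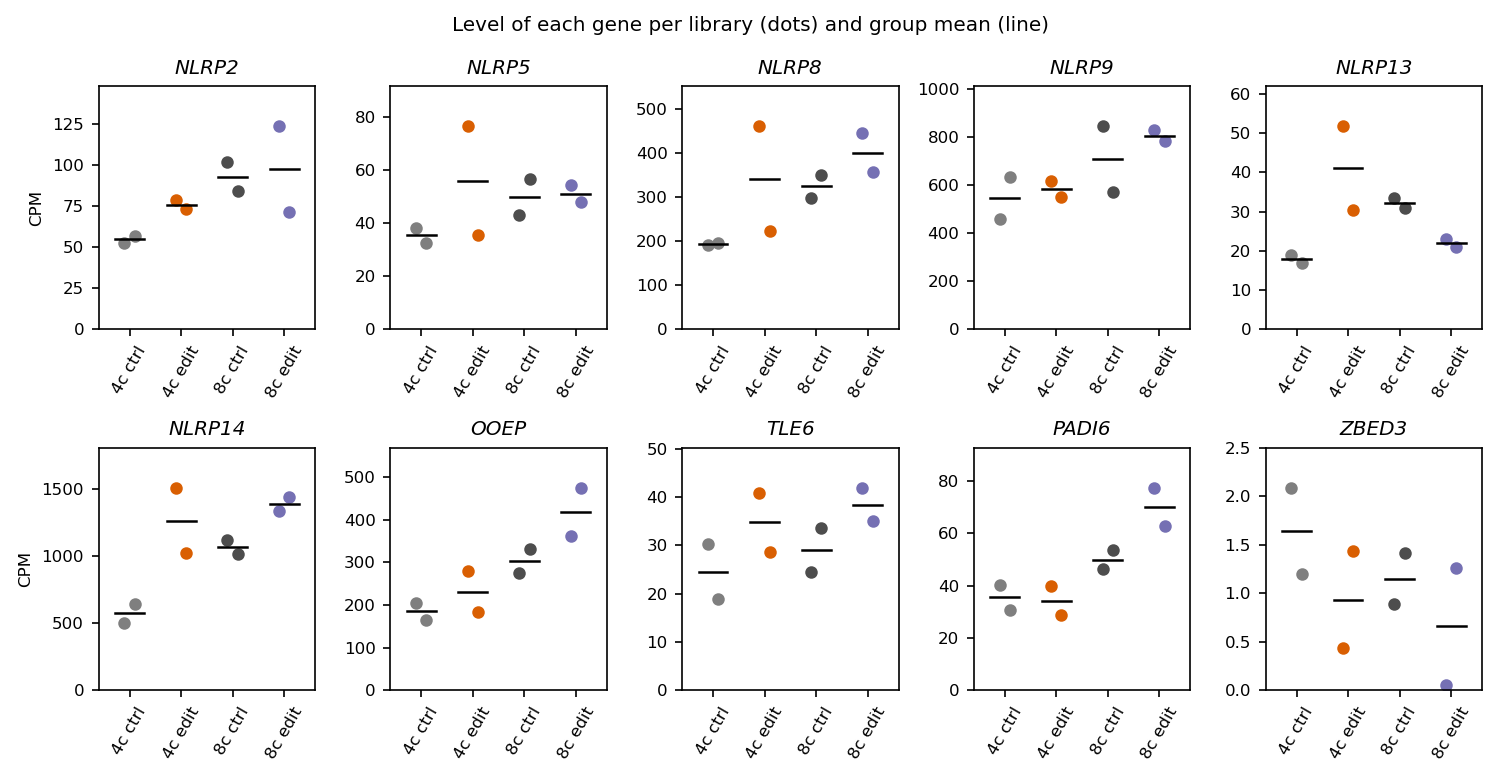
Level of each of the 10 genes in CPM, 1 panel per gene on its own axis from 0, with 1 dot per library and a line at the mean of the 2 libraries. The groups from left to right are 4-cell control, 4-cell edited, 8-cell control and 8-cell edited. NLRP14 is lowest in the 4-cell controls (503 and 643 CPM), and the edited libraries of NLRP13 lie above the controls among 4-cell and below them among 8-cell embryos.

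At the 8-cell stage the same question was put to the other 4 libraries. None of the 10 genes was called by limma, in either direction, and none had an unadjusted p under 0.05. Of all genes 15.6% were called, 1.08% higher and 14.5% lower. edgeR and DESeq2 each called 0 of the 10 as well, with 0 at an unadjusted p under 0.05. Across the 10 genes the median change was 0.26 on the log2 scale, beside 0.0046 over all genes and 0.57 over the 15 oocyte markers. In 5 genes both edited libraries lay above both controls, as in 27.7% of all genes, and in 1 gene both lay below, as in 32.7% of all genes.

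OOEP stood at 275 and 332 CPM in the 8-cell controls and at 362 and 474 CPM in the 8-cell edited libraries, a log2 fold change of 0.46 with an interval from -0.069 to 0.98. PADI6 stood at 46.3 and 53.4 CPM in controls and at 77.2 and 62.5 CPM in edited embryos, with 0.47 and an interval from -0.099 to 1.05. NLRP14 had a log2 fold change of 0.38 with an interval from -0.11 to 0.86. Its 4-cell estimate was 1.12, and limma did not call the difference between the stages (adjusted p-value 0.184). TLE6 stood at 24.6 and 33.6 CPM in controls and at 41.9 and 35.0 CPM in edited embryos, with 0.40 (interval -0.26 to 1.06). NLRP8 stood at 299 and 350 CPM in controls and at 445 and 356 CPM in edited embryos, with 0.30 (interval -0.29 to 0.89). The edited libraries of these 5 genes lay above both controls, yet no difference passed the test.

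NLRP13 and ZBED3 had the lower mean in edited 8-cell embryos, and of these NLRP13 was the one whose groups did not overlap. It stood at 33.5 and 30.9 CPM in the 8-cell controls and at 23.0 and 20.9 CPM in the edited libraries, a log2 fold change of -0.53 (interval -1.17 to 0.10, limma adjusted p-value 0.277). The remaining NLRP genes overlapped between groups. NLRP9 stood at 845 and 570 CPM in controls and at 829 and 783 CPM in edited embryos (log2 fold change 0.21), NLRP2 at 102 and 84.4 against 124 and 71.5 CPM (0.022) and NLRP5 at 42.8 and 56.5 against 54.2 and 47.9 CPM (0.049).

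**Figure D3:**
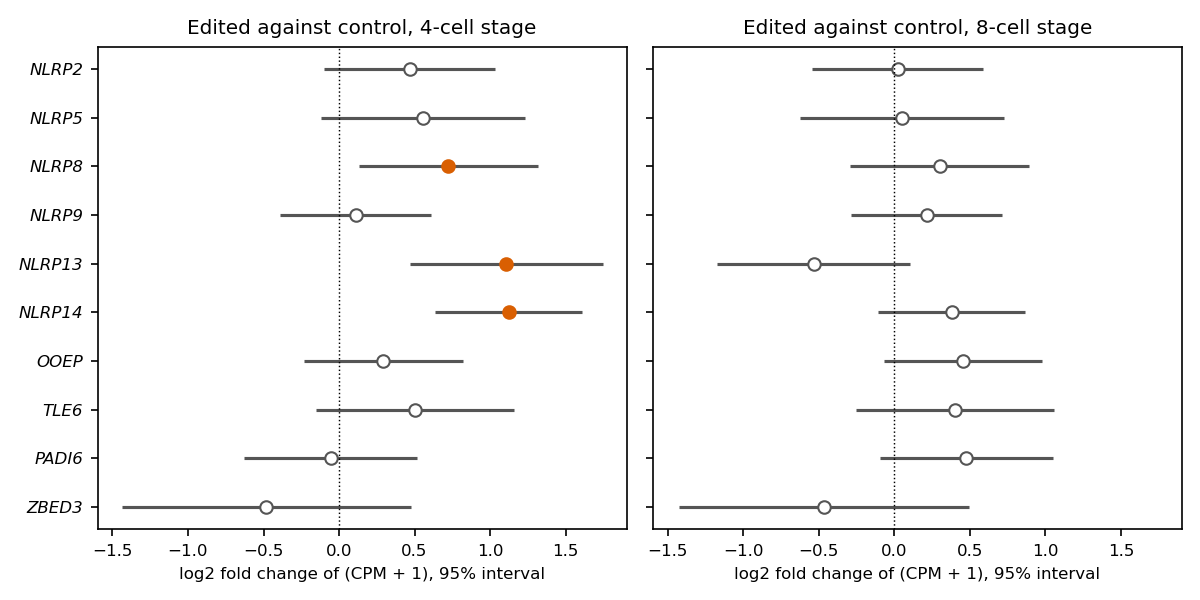
Log2 fold change of (CPM + 1), edited over control, for the 10 genes in 4-cell embryos (left) and 8-cell embryos (right), with 95% intervals from limma. Filled orange dots are called at an adjusted p under 0.05 over all genes tested, and open dots are not. The filled dots are NLRP8, NLRP13 and NLRP14 at the 4-cell stage.

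Whether the effect of editing itself differed between the stages was tested as the 8-cell effect minus the 4-cell effect. NLRP13 was the 1 gene of 10 called, with a difference of -1.64 on the log2 scale (SE 0.426, interval -2.54 to -0.74, adjusted p by limma 0.0427). Over all genes tested 3.96% were called here, 1.95% with an effect higher in 8-cell embryos and 2% with one lower. In NLRP13 both edited libraries were above both controls at the 4-cell stage and below both at the 8-cell stage. The call lay close to the threshold. It was lost when any library other than the second 4-cell control was left out, with adjusted p-values from 0.0569 to 0.164 and differences from -2.02 to -1.26. It was lost with edgeR (adjusted p-value 0.0704) and without a filter on low values (0.108), and was kept with DESeq2 (0.00407). NLRP14 had a difference of -0.74 (interval -1.43 to -0.057) and an adjusted p-value of 0.184 by limma, and the remaining 8 had unadjusted p-values above 0.05.

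**Figure D4:**
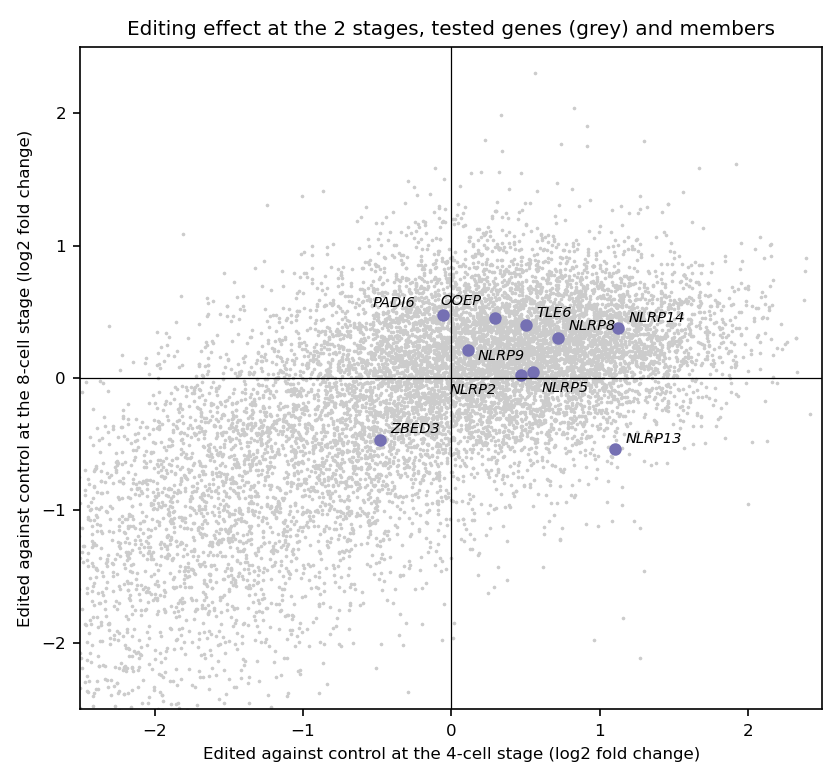
Log2 fold change, edited over control, in 4-cell embryos (horizontal) and in 8-cell embryos (vertical) for the tested genes (grey) and the 10 named genes (purple); 746 of the 12129 genes lie outside the axes. NLRP13, at 1.11 and -0.53, lies right of and below 0, ZBED3 left and below, PADI6 just left of 0 and above, and the other 7 right and above.

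The stages were then compared within each condition, to follow these maternal transcripts from the 4-cell to the 8-cell stage. In control embryos 9 of the 10 genes had a higher mean at the 8-cell stage, as had 6110 of the 12129 genes tested and 13 of the 15 oocyte markers. In 7 of the 10 the libraries did not overlap, where 28.4% of all genes were higher without overlap. limma called 1 of the 10, NLRP14, where 9.02% of all genes were called, 2.75% higher and 6.27% lower. NLRP14 had a mean of 1066 ± 76.5 CPM in 8-cell controls and of 573 ± 99.3 CPM in 4-cell controls, a log2 fold change of 0.90 (SE 0.229, adjusted p by limma 0.0293). The adjusted p-value was 0.0722 with edgeR, 0.212 without the first 4-cell control library and 0.226 without the first 8-cell control library. The 4-cell controls of this comparison are also the controls of the 4-cell editing comparison, so the values of both rest on the same 2 libraries.

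A further 4 genes had an unadjusted p under 0.05 by limma in this comparison and missed the adjusted threshold. Of all genes tested 9.02% passed the adjusted threshold. The share of all genes under the unadjusted cut is not given here, so these 4 are not set against a background. NLRP13 had a log2 fold change of 0.82 (limma adjusted p-value 0.0892) and OOEP one of 0.71 (0.0758). NLRP2 had one of 0.75 (0.0796) and NLRP8 one of 0.74 (0.0961). The median of the 10 genes was 0.60, beside 0.0059 over all genes tested and 0.38 over the oocyte markers. CPM is close to a share of the library, so a higher value can come with an unchanged amount per embryo where other transcripts are lower.

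In edited embryos 1 of the 10 genes, PADI6, was called between the stages, where 5.18% of all genes were called, 1.45% higher and 3.73% lower. In 3 genes both 8-cell libraries lay above both 4-cell libraries, as in 22.7% of all genes, and in NLRP13 both lay below, as in 30.2%. PADI6 stood at 39.9 and 28.6 CPM in 4-cell and at 77.2 and 62.5 CPM in 8-cell edited embryos, 2.04-fold higher, with a log2 fold change of 1.02 (SE 0.270, adjusted p by limma 0.0416). The call was lost without any 1 of the 4 edited libraries (adjusted p-values 0.0530 to 0.311) and with edgeR (0.0659). OOEP stood at 281 and 183 CPM in 4-cell and at 362 and 474 CPM in 8-cell edited embryos, with a log2 fold change of 0.87 (limma adjusted p-value 0.0527). It passed with DESeq2 (adjusted p-value 0.0365) and in a limma fit of the 4 edited libraries alone (0.01001). NLRP13 went the other way, from 51.7 and 30.3 to 23.0 and 20.9 CPM, with a log2 fold change of -0.83 that limma did not call (adjusted p-value 0.122) and DESeq2 did (0.0339). NLRP14 had a log2 fold change of 0.16 with an interval from -0.33 to 0.65.

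The proportions among the genes also differed between libraries. The ratio of NLRP14 to NLRP9 reads, which does not depend on how libraries are scaled and was chosen after the values had been seen, was 1.09 and 1.02 in the 4-cell controls and 2.44 and 1.86 in the 4-cell edited libraries. At the 8-cell stage it was 1.33 and 1.77 in controls and 1.61 and 1.84 in edited embryos. The 4-cell groups did not overlap and the 8-cell groups did. With 2 libraries against 2 an exact two-sided permutation test cannot give a p below 0.333, and none was run.

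The patterns of 9 members, those whose mean reached 10 CPM, were compared over the 8 libraries by the root mean square difference of log2(CPM + 1), after each gene was centred on its own mean. OOEP and PADI6 were each other's nearest member, at 0.217, and so were NLRP5 and NLRP8, at 0.203, and NLRP2 and NLRP9, at 0.260. NLRP13 was the farthest member from 6 of the other 8. Many genes outside the set lay nearer: between 38, for OOEP, and 646, for NLRP9, of 12128 were closer than the nearest member. The nearest of all genes were MED13L and RAPH1 for NLRP14 (0.0747 and 0.0882), UTP23 and CLSPN for NLRP13 (0.164 and 0.167), PLEKHA7 and SALL4 for NLRP8 (0.0845 and 0.112), CENPV and HIP1R for OOEP (0.115 and 0.142) and WWOX and LOC100297500 for PADI6 (0.127 and 0.130).

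In the RefSeq gene table of the assembly ARS-UCD2.0, in which all 10 symbols were found, NLRP2, NLRP5, NLRP8, NLRP9 and NLRP13 lie on the same chromosome. NLRP13, NLRP8 and NLRP5 follow each other there with LOC107131465 between the first pair. The other 5 share a chromosome with no other member. OOEP lies beside KHDC3L, another gene of the complex, whose symbol was not among the genes measured. Of 33 protein-coding genes within 2 places of a member, 15 were tested, and 5 of these were called higher and 2 lower in edited 4-cell embryos, near the background of 44.7% of all genes called (18.9% higher, 25.8% lower). Both neighbours on one side of NLRP14, the zinc finger genes ZNF214 and ZNF215, were among them, at 25.2 ± 4.37 against 4.95 ± 1.63 CPM and at 909 ± 27.4 against 425 ± 69.4 CPM (log2 fold changes 2.16 and 1.11, limma adjusted p-values 0.000114 and 0.00102). DDX43, beside OOEP, stood at 71.0 ± 9.73 against 29.3 ± 13.3 CPM, a log2 fold change of 1.32 (limma adjusted p-value 0.00279). ZNF77, beside TLE6, and CRHBP, near ZBED3, were the others called higher (log2 fold changes 0.85 and 1.62). Those called lower were ZNF444, the second gene after NLRP5, and RCC2, beside PADI6 (log2 fold changes -2.13 and -1.08, limma adjusted p-values 0.00226 and 0.0317). Because NLRP genes are a family of related sequences, reads that the authors' counting could have placed in more than 1 of them make their values uncertain to that extent.

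Other proteins tied to the complex or to the lattices were examined as a list, of which 17 of 24 genes were tested. In 4-cell embryos editing went with 4 called higher and 5 lower, near the background of 44.7% of all genes called in either direction, with a median log2 fold change of 0.0060. CFL1, an actin-severing protein reported to act downstream of the complex, stood at 722 ± 145 CPM in controls and at 134 ± 10.2 CPM in edited embryos (log2 fold change -2.41, limma adjusted p-value 1.38e-06). The ubiquitin-conjugating enzyme UBE2D3 stood at 3772 ± 530 against 1777 ± 24.3 CPM and SLBP, which binds the histone mRNA stem-loop, at 234 ± 42.6 against 127 ± 7.33 CPM (log2 fold changes 1.08 and 0.86, limma adjusted p-values 0.000678 and 0.00409). At the 8-cell stage, where 15.6% of all genes were called, CFL1 was the only one of the 17 called. It was lower by a log2 fold change of -0.90 (limma adjusted p-value 0.0108).

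Transcription factors that act in oocytes were a second list, with 8 of 9 tested. In 4-cell embryos editing went with 4 called higher and 0 lower, where 18.9% of all genes were called higher and 25.8% lower, and the median log2 fold change was 0.63. GTF2B, a general initiation factor, stood at 746 ± 162 against 331 ± 161 CPM (log2 fold change 1.24). SOHLH2 and LHX8, regulators of early oocyte growth, had log2 fold changes of 0.72 and 0.80. At the 8-cell stage 1 of the 8 was called higher and 0 lower, where 1.08% and 14.5% of all genes were. This was TBPL2, the oocyte form of the TATA-binding protein, at 50.3 and 63.4 CPM in edited and 30.0 and 26.9 CPM in control embryos (log2 fold change 0.97, limma adjusted p-value 0.0176).

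Members of the same families outside the set were mostly not tested, being either too low or not among the genes measured. Of 15 other NOD-like receptor and related genes 13 were among the genes measured and 5 were tested. At the 4-cell stage 1 of these, APAF1, the scaffold of the apoptosome, was called higher (log2 fold change 0.99, limma adjusted p-value 0.00545). That is near the 18.9% of all genes called higher there. None of the 5 was called by limma in either direction at the 8-cell stage, where 15.6% of all genes were. Of 18 relatives of PADI6, TLE6 and ZBED3, 10 were among the genes measured and 6 were tested. At the 4-cell stage 1 of these, ZBED4, was called higher (log2 fold change 0.99), again near the 18.9% of all genes. Of the proteins that immune NLRPs work with in inflammasomes 7 of 11 were tested. At the 4-cell stage 3 of these were called lower and 1 higher (25.8% and 18.9% of all genes), and at the 8-cell stage 5 were called lower and 0 higher (14.5% and 1.08% of all genes). PYCARD, the inflammasome adaptor, stood at 18.5 ± 7.37 CPM in control and at 1.09 ± 0.646 CPM in edited 4-cell embryos, and CASP4 at 79.4 ± 17.8 and 15.6 ± 0.411 CPM (log2 fold changes -3.20 and -2.25). The 5 called lower in 8-cell embryos included CASP4, PYCARD and CASP8 (log2 fold changes -2.31, -1.74 and -1.61). CASP1, the caspase of the canonical inflammasome, was called higher at the 4-cell stage (log2 fold change 1.10, limma adjusted p-value 0.0378). Its 4-cell controls were far apart, at 29.0 and 92.1 CPM, and the second lay close to the edited libraries, at 100 and 126 CPM.

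The markers of cumulus and granulosa cells mostly went in the opposite direction to the called members at the 4-cell stage. Of the 23 tested, 15 were called lower and 2 higher in edited embryos at the 4-cell stage, with a median of -1.43, where 25.8% of all genes were called lower and 18.9% higher. Among 8-cell embryos 8 markers were called lower and 1 higher, where 14.5% of all genes were called lower and 1.08% higher. With their mean level as a covariate, 0 of the 10 genes was called by limma at the 4-cell stage, with 0 at an unadjusted p under 0.05, and 1 of 12129 genes was called in all. The log2 fold changes were then 0.58 for NLRP14, 0.54 for NLRP13 and 0.65 for NLRP8. The covariate separates the 4-cell control from the 4-cell edited libraries by itself, so that editing and the marker level cannot be told apart there.

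**Figure D5:**
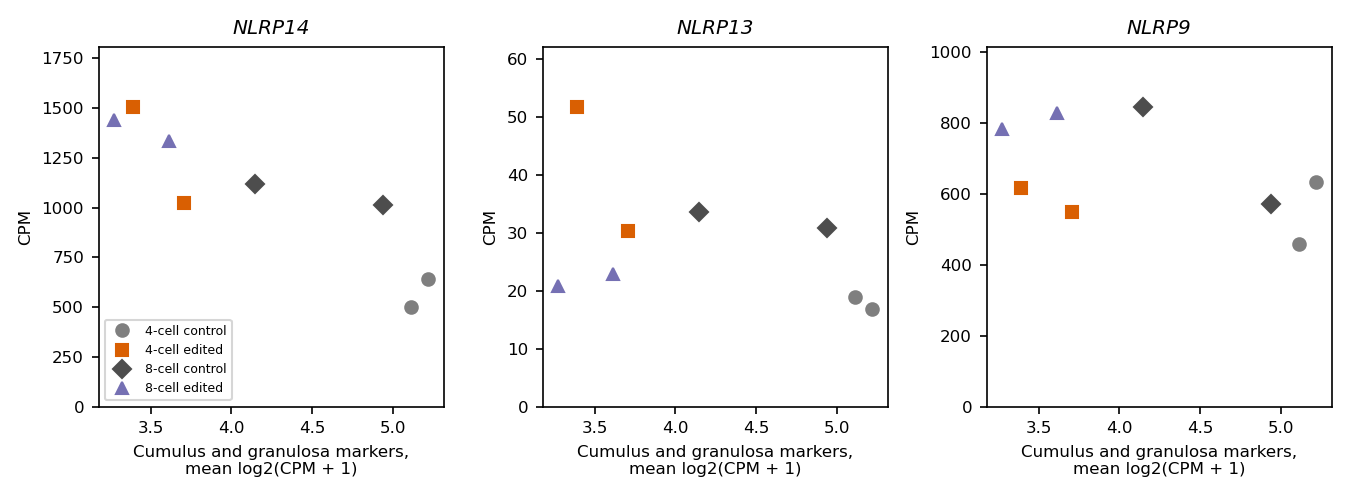
Level in CPM of NLRP14, NLRP13 and NLRP9 (vertical, from 0) against the mean log2(CPM + 1) of 23 cumulus and granulosa markers (horizontal) in the 8 libraries, with 1 symbol per group. The 4-cell controls lie at the right, at 5.11 and 5.22, with the lowest NLRP14, whereas the lowest NLRP13 values are shared by the 4-cell controls at the right and the 8-cell edited libraries at the left.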

How the data were processed

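RNA was measured in 8 libraries of 5 pooled bovine embryos each, amplified as full-length cDNA from polyadenylated RNA, per the labels' protocols. The submitters' processing notes name Trim Galore 0.6.7, HISAT2 2.2.1 and featureCounts 2.0.1. The genome build, annotation and filters are not given in the sources used here. The authors deposited CPM, although the table is named for raw counts: within 0.05 reads, 100% of positive values are whole multiples of 1 step per library, and whole reads were recovered from these steps. Of 12 columns, 4 match no sample and were not used.

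limma 3.58.1 (R 4.3.3) with an intensity trend was fitted to log2(CPM + 1) with 1 mean per group over all 8 libraries. A gene was tested where its mean reached 1 CPM, which left 12129. The pseudocount of 1 CPM understates changes of weakly expressed genes. P-values were adjusted by the Benjamini-Hochberg method over these genes. edgeR 4.0.16 (quasi-likelihood) and DESeq2 1.42.0 on the recovered reads, other pseudocounts, filters and scalings, a replicate block, a marker covariate and fits without single libraries were alternatives. The fits were run on simulated counts, with the same spread setting for all genes and few genes changed, as a check of the code. That setting differs from these data, so it does not show how reliable the calls are here. Named genes were all members, up to 3 called genes per list and comparison by smallest p-value, the 2 nearest patterns per member and, added later, neighbouring genes. Members and lists were chosen with earlier results of these data known. At 574 or more reads per library counting error is small for every member except ZBED3. Reads without molecular identifiers are not independent molecules.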

Additional observations from a re-analysis of the deposited data

Results flagged for a closer look

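In 4 of the named genes limma's test of the difference itself found that the effect of editing differed between the 2 stages, as in 3.96% of all genes tested. Genes other than members were named partly for being called in this comparison, so their number is set by that choice. For NLRP13 the 8-cell effect minus the 4-cell effect was -1.64 (adjusted p-value 0.0427), with opposite directions at the 2 stages in all 8 libraries. That call was lost on leaving out any library but the second 4-cell control, with edgeR and without a filter on low values. OOSP2, an oocyte-secreted protein, had a difference of -2.53 (adjusted p-value 0.00681), with 6432 ± 335 against 931 ± 364 CPM at the 4-cell and 3138 ± 177 against 2532 ± 409 CPM at the 8-cell stage. CFL1 had one of 1.51 (adjusted p-value 0.0272), being lower in edited embryos at both stages and less so at the 8-cell stage. ID3, listed among the cumulus and granulosa markers, had one of 1.86 (adjusted p-value 0.0219), with 1133 ± 160 against 1708 ± 458 CPM at the 4-cell and 3201 ± 417 against 1338 ± 429 CPM at the 8-cell stage. With 2 libraries a group, single libraries that stand apart could not be tested for.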

How the results depend on the processing

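Of 90 counts of called members under 19 alternatives, 62 stayed within 1.5 times the reported count. The counts reported were 3, 0, 1, 1 and 1 for editing at the 4-cell and 8-cell stage, for stage in control and in edited embryos, and for the difference between stages. Without single libraries they ranged from 1 to 4, 0 to 0, 0 to 1, 0 to 2 and 0 to 1; a lone library was then assumed to vary like the other groups. At the 4-cell stage 1 member, NLRP14, was called without the first edited library, and 4, with NLRP5 added, without the second. The marker covariate gave 0 for 4-cell editing, both stage comparisons and the difference. Without a filter on low values, and with edgeR, the last 3 counts were 0 (5, 3 and 1 and then 5, 3 and 2 genes at an unadjusted p under 0.05). With only the libraries compared, the count was 0 in control and 2 in edited embryos. DESeq2 gave 3 in edited embryos.

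No called member turned its direction. Sign changes among members were of uncalled values: PADI6 at the 4-cell stage was 0.052 with edgeR, 0.059 with TMM scaling, 0.084 with the covariate and -0.29 to 0.18 without single libraries. With the covariate NLRP9 was -0.69 in 4-cell and -0.33 in 8-cell embryos, and HSD3B1, a cumulus and granulosa marker called lower at the 4-cell stage (-4.64), was 0.11 there. Without single libraries the 4-cell values of NLRP9 ran from -0.12 to 0.34 and of OOEP from -0.015 to 0.60, and the 8-cell values of NLRP2 from -0.37 to 0.41, NLRP5 from -0.15 to 0.25, NLRP9 from -0.070 to 0.50 and ZBED3 from -1.01 to 0.080. The cause was not tested.

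TMM scaling moved the 4-cell log2 fold changes of all genes by a median of 0.11 and called the same 3 members. Libraries of the same replicate number deviated together with correlations of 0.11, -0.09, -0.30 and 0.02 in the 4 comparisons of groups, so the number pairs nothing that can be shown. With the replicate block the counts of members were 3, 0, 1, 1 and 1, and those of all genes in the first comparison were 5224 against 5419. With the numbers of the 8-cell controls crossed, an alternative added after the data had been seen, the block called 1 member and 1690 genes between stages in controls. Counts of all genes called that moved most were those of 4-cell editing, from 5419 to 1 with the covariate, of stage in controls, from 1094 to 1 without a filter, to 86 with edgeR and to 17 with the covariate, of stage in edited embryos, from 628 to 17 without a filter and 1286 with DESeq2, and of the difference, from 480 to 0 without a filter, 18 with edgeR, 8 with the covariate and 1035 with DESeq2; that of 8-cell editing went from 1895 to 48 with the covariate.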
